A study of Mus musculus with 4 samples.

Results

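The genes described here are 38 enzymes and regulators of the citric acid cycle, of the breakdown of the branched-chain amino acids (leucine, isoleucine and valine) and of the use of ketone bodies, read from RNA sequencing of mouse heart ventricles. They were picked by name from the pathways, with earlier results of these data known, and all 38 were found among the 36814 rows of the authors' deposited table, each once and each above 0 in both groups. The study compared 2 mice labelled wild type with 2 Hnrnpu mutant mice at postnatal day 14, with 1 male and 1 female in each group, all on a C57BL/6 & 129 S4 mix, and the atria were removed before RNA extraction. The mutants came from a conditional Hnrnpu allele and the Ckmm-Cre transgene, whose muscle creatine kinase promoter acts in striated muscle cells, so the other cells of the ventricle were expected to keep the gene; whether the wild type mice carried the floxed allele or the transgene is not given in the sources used here. Hnrnpu codes for hnRNP U, a nuclear RNA-binding protein, and was at 32.7 RPKM in controls and 15.2 RPKM in mutants without passing the authors' test (adjusted p = 0.438 in the authors' deposited table).

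The citric acid cycle runs in the mitochondrial matrix, where it oxidises acetyl-CoA from fatty acids, glucose, ketone bodies and amino acids and passes the electrons to the respiratory chain. Branched-chain amino acids are first transaminated and then decarboxylated by the branched-chain ketoacid dehydrogenase, which a kinase switches off and a phosphatase switches on, and their carbon ends as acetyl-CoA or succinyl-CoA. Ketone bodies made by the liver are oxidised back to acetyl-CoA in the heart, an organ that relies on oxidation of many fuels after birth.

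The values are RPKM, read numbers scaled by transcript length and library size, given by the authors as 1 value per group with no value per mouse. A level therefore has no spread of its own, and the error of a change was read from the authors' p-value, as the standard error that a normal test would need to give that p. Over the 36 members for which it could be computed, this implied standard error had a median of 0.56 and ran from 0.46 to 0.95 on the log2 scale. RPKM is per length, so levels may be compared between genes. Sequencing depth is not stated; by the steps in which values of short RNA genes rise, which stand for single reads if scaling was by mapped reads, the mutant pair of libraries was 2.44 times as deep as the control pair. In bulk ventricle, fewer cells of a type and less RNA per cell cannot be told apart. Markers of cardiomyocytes were abundant, with all 12 between 52.2 and 2380 RPKM in control, with 10 of 12 below control and a median log2 fold change of -0.44. Their summed level was 10479 RPKM in controls and 10657 RPKM in mutants, with Actc1 alone at 2380 and 4530 RPKM. All 8 measured macrophage markers were above control, and their summed level was 66.8 RPKM in control and 199 RPKM in mutant. Fibroblast markers were above control in 6 of 8, with sums of 688 and 965 RPKM. Endothelial markers were below control in 5 of 6, with sums of 128 and 111 RPKM, and mural markers above control in 4 of 6, with sums of 268 and 895 RPKM, of which Acta2 made up 158 and 802 RPKM. Of the 5 adipocyte markers 4 were at or below 0.02 RPKM in both groups, and Fabp4, which endothelial cells also express, was at 339 and 255 RPKM.

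Of the 38 genes, Bdh1 and Bcat1 rose in mutant ventricles, none fell, and 36 did not reach an adjusted p below 0.05 in the authors' deposited table. The 2 calls are 5.26% of the members, beside 3.51% of all 24454 tested rows called in either direction with 2.03% called higher and 1.48% called lower, so the number of calls was near that of the table as a whole. Both called genes average under 1 RPKM, and 0 members were called when rows below that average were left out of the adjustment. With 1 RPKM added to both values the log2 fold changes came to 0.51 for Bdh1 and 0.58 for Bcat1 in place of 4.18 and 2.30. An unadjusted p below 0.05 was reached by 3 members, or 7.89%, beside 12.6% of all tested rows. The members were evenly divided, with 19 above and 19 below control and a median log2 fold change of 0.01, beside 0.08 over the 11292 rows with a mean of at least 1 RPKM. The 16 cycle genes had a median level of 51.5 RPKM in control and a median log2 fold change of -0.04. The 13 genes of branched-chain breakdown had a median level of 4.12 RPKM and a median log2 fold change of -0.17. Rows of these levels differed too, with a median of 0.03 at a mean of 1 to 10 RPKM and 0.34 at 50 RPKM or more. The medians of the 2 lists therefore do not show that branched-chain breakdown lay lower than the cycle for its level. The 3 genes of ketone use had a median log2 fold change of 0.12, with the range from -0.35 to 4.18, and of -0.12 without Bdh1.

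**Figure D1:**
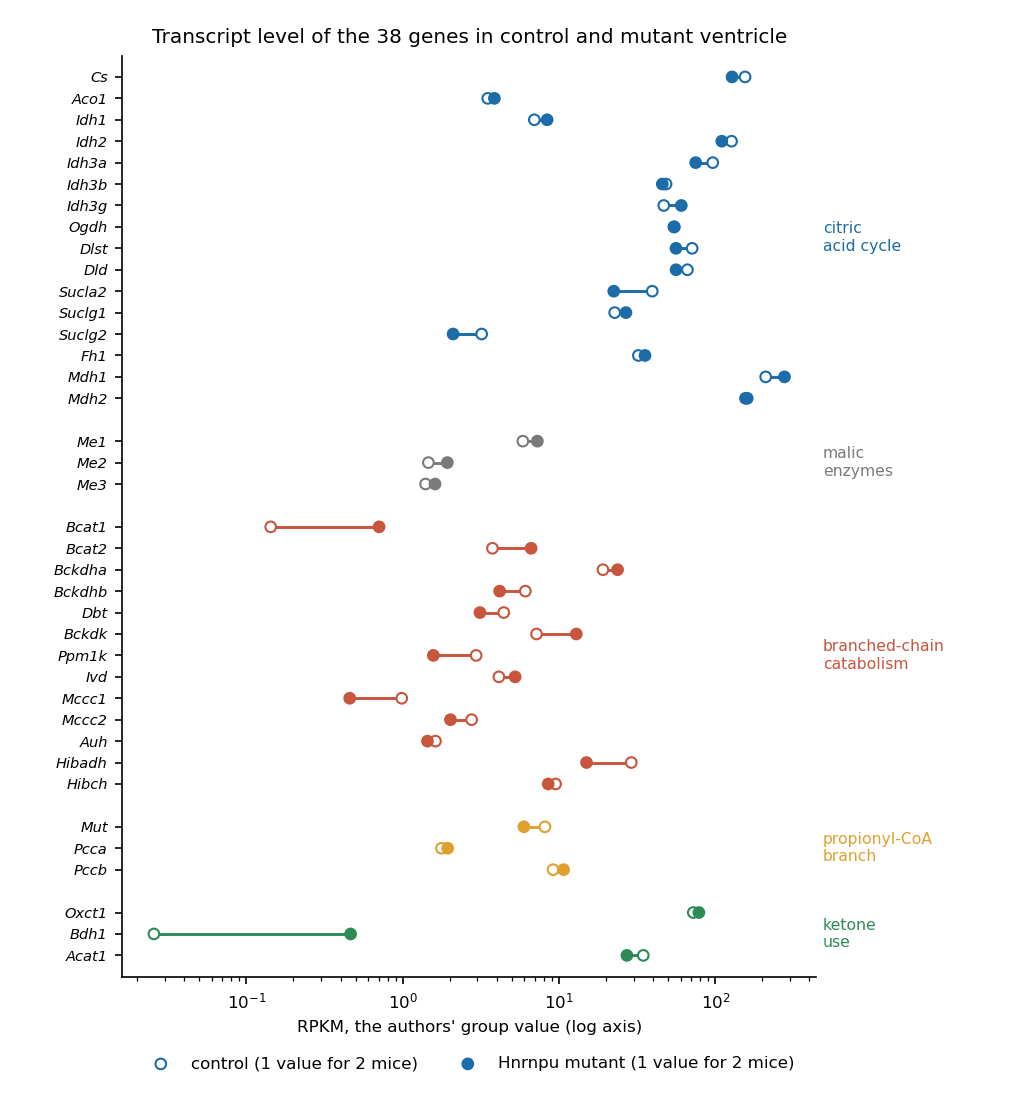
Levels of the 38 genes in RPKM on a log axis, grouped by pathway, with an open circle for the control value and a filled circle for the mutant value, each 1 value by the authors for 2 mice. Most pairs lie close together, and the longest lines are those of Bdh1 (0.0256 to 0.464 RPKM) and Bcat1 (0.143 to 0.706 RPKM), which are also the 2 lowest genes in control.

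Bdh1 codes for the mitochondrial 3-hydroxybutyrate dehydrogenase, which oxidises the main circulating ketone body to acetoacetate. It is a plus-strand gene of chromosome 16, 31422366 to 31458987 in mm9, and was at 0.0256 RPKM in controls and 0.464 RPKM in mutants. This was an 18.1-fold rise with adjusted p = 0.000956 in the authors' deposited table, with a 95% interval from 5.02-fold to 65.5-fold by the implied error. Among the 482 called rises of genes above 0 in control it ranked 61st by fold. Its control value was the lowest of the 38 members and stood for only about 5 reads over both control libraries, against about 238 in mutant, if the exonic length of a later annotation is taken in place of the authors' gene length. Counting error alone then gives a ratio of 19.5 with an exact 95% interval from 8.23 to 60.6, which leaves out differences between mice. Even after its rise Bdh1 remained the second lowest of the 38 in mutant, above Mccc1 only.

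Bcat1 codes for the cytosolic branched-chain aminotransferase, whose mitochondrial counterpart Bcat2 is the usual form in muscle. It is a minus-strand gene of chromosome 6, 144942355 to 145024704 in mm9, and was at 0.143 RPKM in controls and 0.706 RPKM in mutants. The authors' deposited table gives a 4.94-fold rise with adjusted p = 0.00837, and the implied error put its interval between 2.15-fold and 11.3-fold. Among the 482 called rises of genes above 0 in control, Bcat1 ranked 259th by fold. By the same estimate the control value stood for about 72 reads and the mutant value for about 870. Of the summed RPKM of Bcat1 and Bcat2, Bcat1 made up 3.67% in control and 9.62% in mutant, so that Bcat2 held most of the sum in both groups. Multiplied by exonic length, which gives a share of reads and not of transcripts, the values were 8.35% and 20.3%. The 8 macrophage markers given above moved in the same direction. Lyz2, the only 1 of them called, went from 18.4 to 90.5 RPKM (adjusted p = 0.00209 in the authors' deposited table). The other 7 were not called, Csf1r among them at 6.01 and 7.67 RPKM. Of the 8 fibroblast markers 6 were also above control. The part of macrophages and fibroblasts in the values of Bcat1 and Bdh1 was not tested.

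Because Bdh1 and Bcat1 carried the only calls, the 250 bases before the most upstream start that RefSeq gives each of them (build GRCm38.p6) are shown, 5′ to 3′ on the strand of the gene, for Bdh1 at chr16:31422047-31422296 on the plus strand and for Bcat1 at chr6:145076158-145076407 on the minus strand. RefSeq lists 2 starts for each gene, and the table gives 1 value per gene, so the start in use was not measured.
Bdh1: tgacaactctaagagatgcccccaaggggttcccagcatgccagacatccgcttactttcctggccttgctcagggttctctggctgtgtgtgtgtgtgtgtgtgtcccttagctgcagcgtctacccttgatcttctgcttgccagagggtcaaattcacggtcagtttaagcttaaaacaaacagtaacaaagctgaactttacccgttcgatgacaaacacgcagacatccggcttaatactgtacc
Bcat1: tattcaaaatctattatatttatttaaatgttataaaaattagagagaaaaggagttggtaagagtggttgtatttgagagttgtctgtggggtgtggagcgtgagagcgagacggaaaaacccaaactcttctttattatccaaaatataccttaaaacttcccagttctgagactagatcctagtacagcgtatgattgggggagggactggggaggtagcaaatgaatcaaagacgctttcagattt
The bases G and C made up 49.6% of the Bdh1 stretch and 37.6% of the Bcat1 stretch. None of the 3 motifs described further on is found in the promoter windows of either gene.

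**Figure D2:**
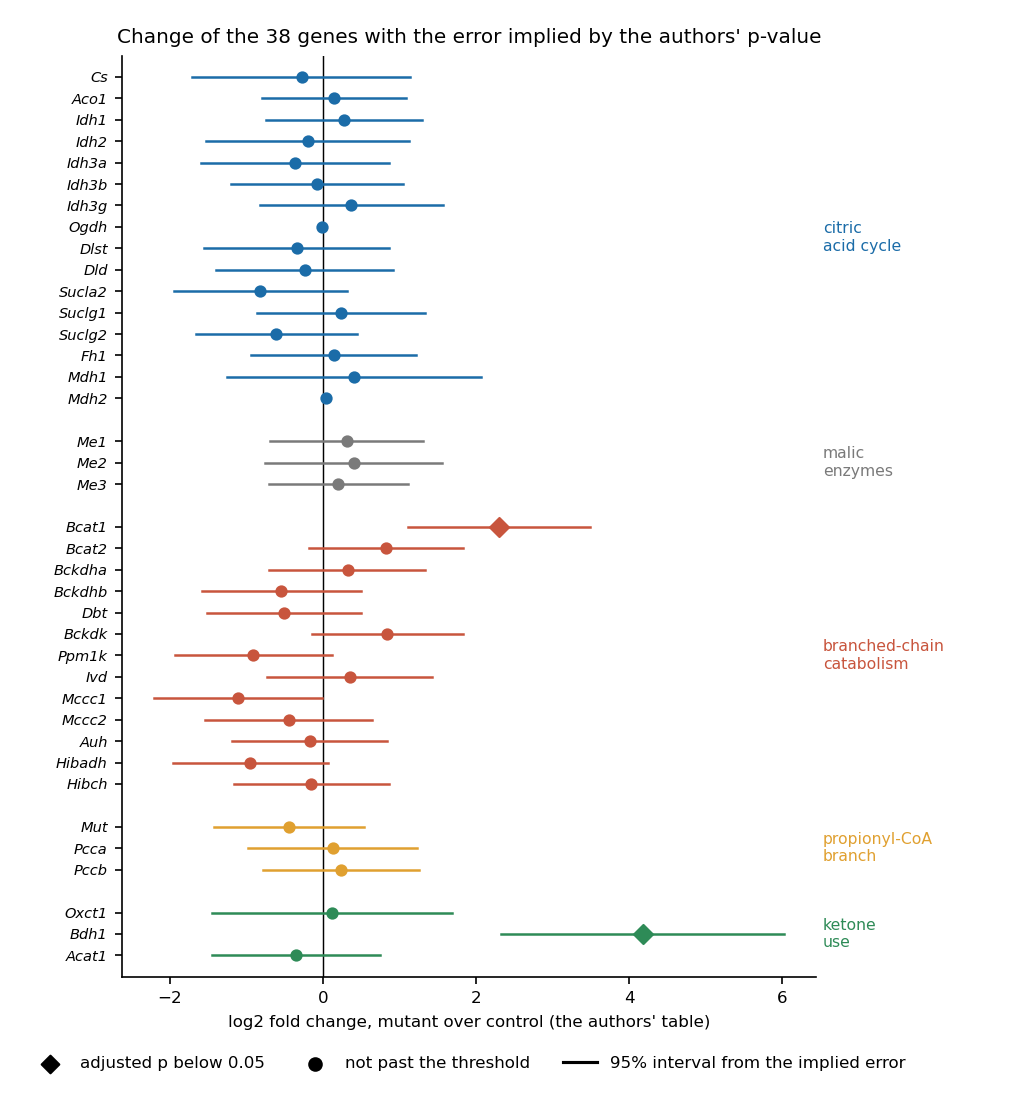
The log2 fold change of mutant over control for each of the 38 genes from the authors' table, with diamonds for an adjusted p below 0.05 and lines for the 95% interval from the implied error (none drawn for Ogdh and Mdh2, whose p was too near 1). Bdh1 (4.18) and Bcat1 (2.30) stand clear of 0, and among the others the interval of Mccc1 alone ends below 0, at -0.01.

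The cycle list showed no call among 16 genes, also none with an unadjusted p below 0.05. Over all tested rows, 3.51% were called in either direction and 12.6% had an unadjusted p below 0.05. The log2 fold changes of the 16 genes lay between -0.82 and 0.40, with 9 genes below and 7 above control. Their summed RPKM was 1140 in control and 1122 in mutant. The cytosolic enzymes Aco1, Idh1 and Mdh1 were all above control. Without them, 9 of the 13 mitochondrial enzymes were below control, with a median log2 fold change of -0.20 and sums of 919 and 832 RPKM. Cs, citrate synthase, which joins acetyl-CoA to oxaloacetate, was at 155 RPKM in controls and 128 RPKM in mutants. Its log2 fold change of -0.28 in the authors' deposited table had a 95% interval from -1.71 to 1.14, which spans changes of more than 2-fold either way. A near copy, Csl, is listed separately at 2.63 and 6.24 RPKM (p = 0.0176, adjusted p = 0.221 in the authors' deposited table), and how reads that match both were counted is not given in the sources used here. Aco1, the cytosolic aconitase that also acts as iron regulatory protein, was at 3.50 RPKM in controls and 3.86 RPKM in mutants.

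The isocitrate dehydrogenases lay on both sides of control, with no call. Idh2, the NADP-dependent mitochondrial enzyme, was at 127 RPKM in controls and 110 RPKM in mutants, and its cytosolic counterpart Idh1 at 6.95 and 8.39 RPKM. Idh1 thus made up 5.19% of their sum in control and 7.09% in mutant. The NAD-dependent enzyme of the cycle is built from 3 kinds of subunit: Idh3a, the catalytic one, was listed at 96.3 and 74.9 RPKM, Idh3b at 48.4 and 45.8 RPKM, and Idh3g, a regulatory one, at 46.8 and 60.6 RPKM. The ratio of Idh3a to Idh3g was 2.06 in control and 1.24 in mutant, while none of the 3 passed the test.

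The 2-oxoglutarate dehydrogenase complex consists of Ogdh, the decarboxylase, Dlst, the succinyl transferase, and Dld, a dehydrogenase shared with the pyruvate and branched-chain complexes. Ogdh was at 54.7 RPKM in controls and 54.3 RPKM in mutants, the smallest log2 fold change of all members in size (-0.01). Dlst was listed at 71.1 and 56.0 RPKM and Dld at 66.3 and 56.1 RPKM. All 3 subunits were thus within a narrow band of levels in both groups.

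Succinyl-CoA synthetase, which makes a nucleoside triphosphate directly, held the largest falls in value among the cycle genes, none of them called. Sucla2, the beta subunit that makes ATP, was at 39.5 RPKM in controls and 22.4 RPKM in mutants. The authors' deposited table gives this a ratio of 0.567 with p = 0.155 and adjusted p = 0.66, and the implied error put its interval between 0.259 and 1.24. Suclg2, the beta subunit that makes GTP, was listed at 3.20 and 2.10 RPKM, and it made up 7.49% of the summed beta subunits in control and 8.57% in mutant. Suclg1, the alpha subunit that both share, was at 22.7 RPKM in controls and 26.8 RPKM in mutants. The ratio of Suclg1 to Sucla2 was therefore 0.575 in control and 1.2 in mutant, a difference in values that no test of its own covers.

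Fh1 and Mdh2, the last steps of the cycle, lay close to control in value, neither with a call. Fh1, fumarase, was at 32.2 RPKM in controls and 35.5 RPKM in mutants, and Mdh2, the mitochondrial malate dehydrogenase, at 156 and 160 RPKM. Mdh1, the cytosolic malate dehydrogenase of the malate-aspartate shuttle, was the highest of all 38 members, with 210 RPKM in control and 277 RPKM in mutant. In the authors' deposited table its log2 fold change of 0.40, the largest rise in value of the 16, had p = 0.638 and adjusted p = 1, and the interval ran from -1.26 to 2.06. Mdh1 made up 57.4% of the summed malate dehydrogenases in control and 63.4% in mutant.

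Malic enzymes turn malate into pyruvate, Me1 in the cytosol and Me2 and Me3 in mitochondria, and all 3 were listed above control without a call. Me1 was at 5.87 RPKM in controls and 7.27 RPKM in mutants, Me2 at 1.46 and 1.93 RPKM, and Me3 at 1.4 and 1.61 RPKM. The largest difference, that of Me2, was 0.40 on the log2 scale with p = 0.501 and adjusted p = 0.996 in the authors' deposited table, and the smallest was 0.20 for Me3 (p = 0.665, adjusted p = 1). Their proportions were alike in both groups, with Me1 at 67.2% of the sum in control and 67.3% in mutant.

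The breakdown of branched-chain amino acids gave 1 call among 13 genes, the rise of Bcat1, with 5 genes above and 8 below control. Over all tested rows, 2.03% were called higher and 1.48% lower, and 1 call among so few genes gives no rate for the pathway. The middle 50% of the log2 fold changes of the 13 genes spanned 0.89. This span was 0.46 for the cycle genes and 0.99 over all rows with a mean of at least 1 RPKM. Bcat2, the mitochondrial aminotransferase of the first step, was at 3.75 RPKM in controls and 6.63 RPKM in mutants, a ratio of 1.77 in the authors' deposited table with p = 0.108 and adjusted p = 0.568. Both aminotransferases were thus higher in value in mutant, Bcat1 with a call and Bcat2 without one.

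The branched-chain ketoacid dehydrogenase complex commits the carbon to oxidation. Its decarboxylase subunits differed in the sign of their values: Bckdha was at 19.1 RPKM in controls and 23.7 RPKM in mutants, and Bckdhb at 6.09 and 4.17 RPKM. Dbt, the transacylase core, was listed at 4.43 and 3.12 RPKM. By whole gene spans, introns included, Dbt overlaps the pseudogene Gm4596 on the other strand over 442 bases. Gm4596 rose from 12.9 to 48.0 RPKM (adjusted p = 0.012 in the authors' deposited table). Whether any reads were shared was not tested, and such reads could not be told apart without strand. Bckdha, Bckdhb and Dbt were not called. The intervals from the implied error include no change, from 0.617 to 2.52 for Bckdha, 0.334 to 1.4 for Bckdhb and 0.351 to 1.41 for Dbt. The ratio of Bckdha to Bckdhb was 3.14 in control and 5.68 in mutant, a difference in values that no test of its own covers.

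The regulators of the complex differed from control in opposite directions, neither with a call. Bckdk, the kinase that switches the complex off, was at 7.18 RPKM in controls and 12.9 RPKM in mutants, and the authors' deposited table gives a fold of 1.79 with p = 0.0955 and adjusted p = 0.534. Ppm1k, the phosphatase that switches it on, was at 2.95 RPKM in controls and 1.57 RPKM in mutants, with a fold of 0.531, p = 0.0818 and adjusted p = 0.505 in the authors' deposited table. The intervals from the implied error both include no change, from 0.903 to 3.55 for Bckdk and from 0.26 to 1.08 for Ppm1k. As a ratio of levels, Bckdk over Ppm1k was 2.43 in control and 8.22 in mutant, a 3.38-fold difference that rests on both uncalled changes and was chosen for display as a pair of opposing regulators.

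The leucine arm runs from Ivd, isovaleryl-CoA dehydrogenase, through the methylcrotonyl-CoA carboxylase subunits Mccc1 and Mccc2 to the hydratase Auh. Ivd was at 4.12 RPKM in controls and 5.24 RPKM in mutants. Mccc1, the biotin-carrying subunit, was at 0.986 RPKM in controls and 0.458 RPKM in mutants, and Mccc2 at 2.76 and 2.02 RPKM. The authors' deposited table gives Mccc1 a fold of 0.465 with p = 0.0486 and adjusted p = 0.391. This fall in value, the largest of the 38 as a deposited log2 fold change (-1.11), thus did not pass the test. With 1 RPKM added to both values it came to -0.45, and Hibadh (-0.91), Sucla2 (-0.79), Ppm1k (-0.62) and Bckdhb (-0.46) lay lower. Auh was at 1.62 RPKM in controls and 1.44 RPKM in mutants. In the valine arm, Hibch, the hydrolase that frees 3-hydroxyisobutyrate, was listed at 9.51 and 8.53 RPKM. Hibadh, the dehydrogenase that follows it and the highest of the 13 listed genes in control, was at 29 RPKM in controls and 15 RPKM in mutants, a ratio of 0.518 in the authors' deposited table with p = 0.0659 and adjusted p = 0.455. Its interval ran from 0.257 to 1.04.

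Propionyl-CoA from isoleucine and valine enters the cycle as succinyl-CoA through propionyl-CoA carboxylase and methylmalonyl-CoA mutase. Pcca and Pccb, the carboxylase subunits, stood at 1.77 and 9.16 RPKM in controls, against 1.94 and 10.7 RPKM in mutants. The ratio of Pccb to Pcca was 5.18 in control and 5.52 in mutant. Mut, the mutase, was at 8.13 RPKM in controls and 5.96 RPKM in mutants, the largest fall in value of the 3 (log2 fold change -0.45, p = 0.369, adjusted p = 0.913 in the authors' deposited table), and the largest rise in value was that of Pccb (0.23, p = 0.658, adjusted p = 1). By whole gene spans, introns included, Pcca overlaps A2ld1 over 74878 bases and Mut overlaps Cenpq over 341 bases, each on the other strand. In all, the spans of 14 of the 38 members overlap another row that is above 0 in a group. Whether any reads were shared was not tested.

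In ketone use, Bdh1 was the 1 call among 3 genes, too few to give a rate beside the 2.03% of all tested rows called higher. The enzymes that follow Bdh1 were far more abundant in both groups. Oxct1, the transferase that activates acetoacetate and the step that sets tissues able to burn ketone bodies apart from the liver, was at 72.3 RPKM in controls and 78.5 RPKM in mutants (p = 0.884, adjusted p = 1 in the authors' deposited table), with an interval from 0.365 to 3.22. Acat1, the thiolase that ends both ketone use and isoleucine breakdown, was at 34.6 RPKM in controls and 27.2 RPKM in mutants, a fold of 0.785 with p = 0.534 and adjusted p = 1 in the authors' deposited table. The level of Oxct1 was 2824 times that of Bdh1 in control and 169 times in mutant. Whether Bdh1 changed differently from Oxct1 was not tested. The interval of Bdh1, from 5.02-fold upward, rests on a control value of about 5 reads. With 1 RPKM added to both values, the log2 fold change was 0.51 for Bdh1 and 0.12 for Oxct1.

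**Figure D3:**
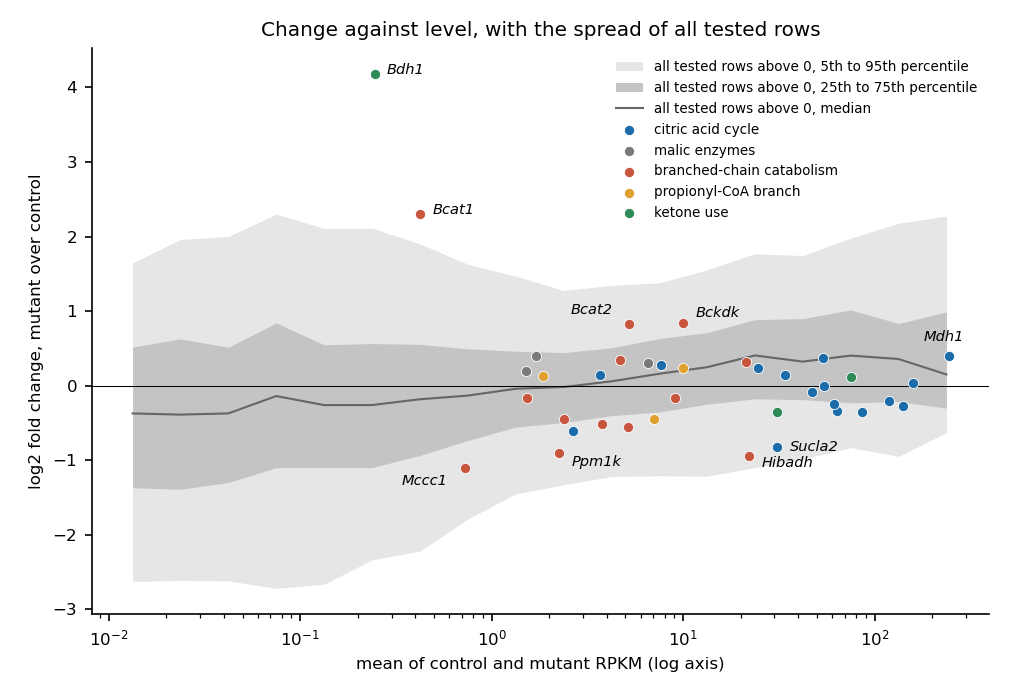
The log2 fold change of each of the 38 genes against the mean of its control and mutant RPKM on a log axis, over grey bands that give the middle 50% and the middle 90% of all tested rows above 0 at that level. Bdh1 and Bcat1 lie above the wider band at means under 1 RPKM, and all other members lie inside it.

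The members were also placed by level. Of the 38 genes, 3 had a mean under 1 RPKM, 17 a mean from 1 to 10 RPKM, 8 from 10 to 50 RPKM and 10 of at least 50 RPKM, and the calls were 2, 0, 0 and 0. Among all tested rows in these ranges, 2%, 4.91%, 6.26% and 9.22% were called, so calls were not rarer among abundant rows. The smallest called changes were 3.46-fold, 3.03-fold, 3.05-fold and 3.36-fold in the same order. No member above a mean of 1 RPKM differed that much, and no smaller difference was called anywhere in the authors' deposited table. The absence of calls in the cycle therefore does not show that its genes were unchanged. Rows with a mean of at least 50 RPKM had a median log2 fold change of 0.34 and a middle 50% from -0.25 to 0.99, and of the 10 members there only Idh3g and Mdh1 were above that median.

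The other genes of these pathways came from lists of neighbouring enzymes, carriers and regulators. Of 29 other genes of the cycle and of entry into it, 3 rose and 26 did not pass the test, with no falls, in the authors' deposited table, with a median log2 fold change of 0.08. Over all 24454 tested rows, 2.03% were called higher and 1.48% lower. Pck2, the mitochondrial phosphoenolpyruvate carboxykinase that draws on oxaloacetate, rose from 4.04 to 15.5 RPKM (adjusted p = 0.00791 in the authors' deposited table). Pcx, pyruvate carboxylase, which makes oxaloacetate, rose from 0.538 to 2.10 RPKM with adjusted p = 0.0232, and Pdk3, a kinase that inhibits pyruvate dehydrogenase, from 0.865 to 3.36 RPKM with adjusted p = 0.025, both in the authors' deposited table. Pdk4, the kinase of that family known for its fasting response, was listed at 36.1 and 29.9 RPKM without a call. The 4 subunits of succinate dehydrogenase, Sdha to Sdhd, ranged from 33.2 to 91.9 RPKM in controls and from 34.5 to 138 RPKM in mutants, also without a call.

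Of 22 other genes of branched-chain and propionate metabolism, 2 rose and 20 did not pass the test, with no falls and a median log2 fold change of 0.60. The shares over all tested rows, as above, were 2.03% called higher and 1.48% called lower. Both calls were the chains of 1 transporter at the cell surface: Slc7a5, the light chain that carries leucine and other similar bulky amino acids, rose from 0.865 to 25.7 RPKM (adjusted p = 7.02e-14), and its heavy chain Slc3a2 from 5.85 to 23.5 RPKM (adjusted p = 0.00602), both in the authors' deposited table. Slc25a44, a mitochondrial carrier of branched-chain amino acids, was listed at 1.57 and 2.82 RPKM (adjusted p = 0.565 in the authors' deposited table). Klf15, a transcription factor known to promote branched-chain breakdown, was at 3.16 RPKM in controls and 8.09 RPKM in mutants, with p = 0.00877 and adjusted p = 0.146 in the authors' deposited table. Mcee, the epimerase between propionyl-CoA carboxylase and the mutase, was at 26.4 RPKM in controls and 9.90 RPKM in mutants, with p = 0.00672 and adjusted p = 0.123 in the authors' deposited table. Abat, a transaminase, was at 0.300 and 0.708 RPKM, with p = 0.0381 and adjusted p = 0.348 in the authors' deposited table. Of 6 other tested ketone genes 0 passed the test and 0 had an unadjusted p below 0.05 in the authors' deposited table.

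**Figure D4:**
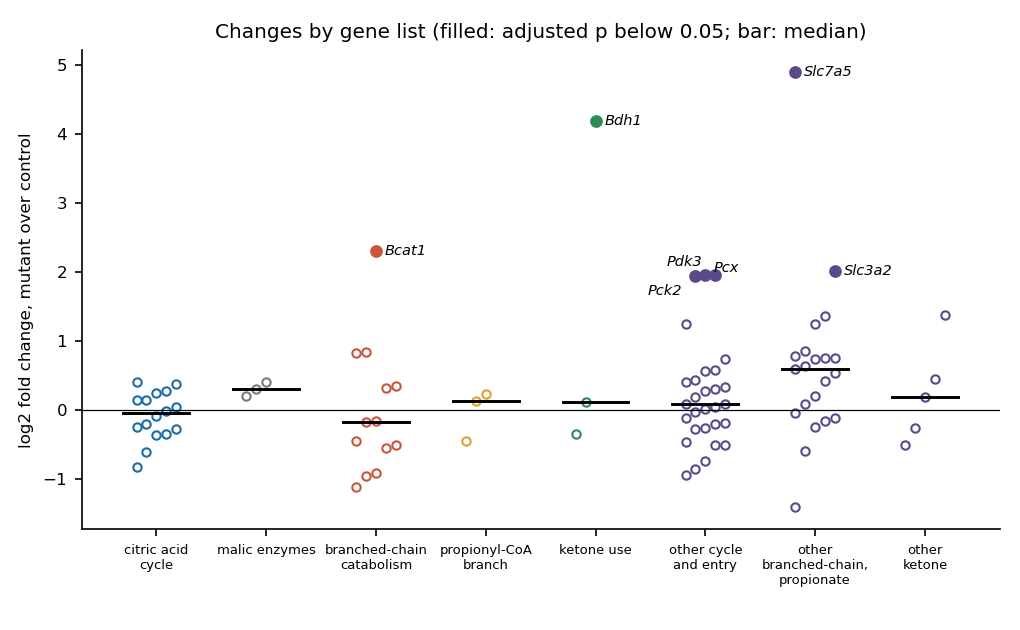
The log2 fold change of mutant over control for the 5 groups of members and the 3 lists of other genes, with a filled circle for an adjusted p below 0.05 and a bar at the median of each list. Genes at 0 in a group are left out, all 7 filled circles lie above 0, and the cycle genes are gathered between -0.82 and 0.40.

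The promoter sequences of 33 members were matched in RefSeq (45 windows from 250 bases before to 50 bases after a start, GRCm38.p6), and Acat1, Dbt, Idh3a, Me2 and Mut had no entry. They were searched on both strands for AAGGTCA, the core of the site of the estrogen-related receptors, for TGATGCAA, a form of the composite element of Atf4, and for the element of NRF-1, a regulator of mitochondrial genes (GCGC, any base, then TGCGC); no letters are shared between these matches. AAGGTCA was in 1 member window (2.22%), that of Ogdh, against 4.72% of all 32851 windows, and TGATGCAA in 0 member windows against 0.895%. The NRF-1 element was in 4 member windows (8.89%) against 4.6% of all windows. The 4 matches are shown because they include Sucla2 and Hibadh, the genes with the lowest fold of the cycle and of the valine arm, with the motif in capitals and 30 bases each, at chr14:73552759-73552788 (plus strand) for Sucla2, chr6:52640347-52640376 (minus strand) for Hibadh, chr9:101034934-101034963 (minus strand) for Pccb and chr12:31351422-31351451 (minus strand) for Dld.
Sucla2: ctgcgtctctGCGCCTGCGCggtgcccagg
Hibadh: agcaaggagaGCGCGTGCGCgagctgtcct
Pccb: cagcgacgacGCGCAGGCGCagactcgcaa
Dld: cggcgatgacgtatatgttGCGCAGGCGCa
The motif reads along the gene's strand in Sucla2 and Hibadh and on the opposite strand in Pccb and Dld. These 4 genes gave log2 fold changes of -0.82, -0.95, 0.23 and -0.24 in the authors' deposited table, none with a call, and a match of letters is not a measured binding site.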

How the data were processed

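RNA of heart ventricles from 4 mice was sequenced. Per the file headers, the authors deposited 1 RPKM value per group and gene, the ratio (fold) between groups as mutant over control, the log2 of that fold, and p-values raw and adjusted; per the submitters' processing notes, Bowtie 0.12.9, DESeq and mm9 were used. The annotation, read counter and strandedness are not stated. The p-values rest on these 2 samples a group. How the authors' test set the spread of each gene is not given in the sources used here, so a p-value or interval is not a measured spread between mice.

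The fixed design took the authors' test as the main result, with a call at an adjusted p below 0.05. Deposited folds matched the RPKM ratios within 0.971% in 10320 rows. Intervals (95%) use the absolute log2 fold change divided by the normal quantile of the p-value, where p was at most 0.95. The code for the adjustment and for the implied error was run on simulated data made with the same normal formula. Recovery of the error was therefore fixed in advance. The run checked the arithmetic only, and how well the intervals suit the authors' test was not tested. The members and lists were chosen with earlier results of these data known. Every member is named; full statistics are given for members with an unadjusted p below 0.05 and for the largest rise and fall of each list, and for others where a result turns on them; of other genes, those with an unadjusted p below 0.05, Klf15, Pdk4 and Slc25a44, the rest after their values were seen. Mpc1, Mpc2 and Adgre1 matched no row, and 2 other listed genes are not reported here. Numbers of reads come from RPKM, steps of 0.0171 and 0.0201 (control) and 0.00654 and 0.00897 (mutant) RPKM x kb, and GENCODE M21 exonic lengths. Protein identity was not computed, as no protein table was used. Python 3.11.15, pandas 2.3.3 and scipy 1.17.1 were used.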

Additional observations from a re-analysis of the deposited data

How the results depend on the processing

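No paired analysis was possible because the table holds 1 value per group, and leaving out a replicate was not run for the same reason. With p-values adjusted over rows with a mean of at least 1 RPKM, the calls among the members numbered 0 in place of 2, because Bdh1 and Bcat1 lie under that level. They numbered 2 at an adjusted p below 0.1 and, in alternatives chosen after seeing the data, over protein coding rows and over rows averaging 0.1 RPKM or more. The median log2 fold change of the cycle was -0.20 for its mitochondrial enzymes alone, and that of ketone use was -0.12 without Bdh1, the member under 1 RPKM. Centring on all rows changed the sign of Mdh2 only, from 0.04 to -0.04. With 1 RPKM added to both values, Bdh1 came to 0.51 and Bcat1 to 0.58 on the log2 scale. RPKM multiplied by exonic length gives a share of reads, which favours longer genes, and not of transcripts. By this measure the share of Bcat1 was 8.35% in control and 20.3% in mutant, and that of Mdh1 49.2% and 55.5%. The share of Me1 was 42.1% in control and 42.7% in mutant, and that of Me3 38.2% and 35.9%. The unknown depth of each library and the 2 mice a group limit all values.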
